A study of Mus musculus with 9 samples.

Results

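The baseline RNA of ribosome precipitates aimed at adipose endothelium was described from the 4 WT libraries of a series of 9, over all 11802 genes of the deposited table. These libraries came from mice of strain Pdgfb-iCreERT2:Rpl22HA, whose endothelial cells still carried Mfn2. The remaining 5 libraries, from mice whose endothelium lacked Mfn2, entered no level, rank or spread below and bear only on which genes have a row in the table. All 4 libraries were immunoprecipitated with an antibody to the HA tag from homogenates of 50 to 100 mg of white adipose tissue. The labels number the 4 as biological replicates without naming the animals, and give no depot, age, sex or Cre induction schedule, so the spread reported here is the spread between these samples and part of it may be technical.

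In RiboTag mice a Cre recombinase switches the ribosomal protein Rpl22 to an HA-tagged form, so that ribosomes of the Cre-expressing cells, with the RNA bound to them, can be pulled out of a whole-tissue homogenate. Here the driver was an inducible Cre under the promoter of Pdgfb, a growth factor gene that endothelial cells use to attract pericytes. Capillary endothelium of fat lies directly against adipocytes, anchors lipoprotein lipase on its luminal face and passes fatty acids from the blood to the fat cells. Precipitates from a homogenate can also hold RNA that was not on tagged ribosomes, and the matching input RNA was not analysed here, so each level below is a level in the precipitate and not an enrichment over the tissue.

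The sequences of the predicted genes that ranked highest are shown first, because their reads may not be assignable to 1 locus. Gm10800, Gm21738 and Gm10801 stood among the 10 highest genes of any class and are annotated as protein-coding, but they belong to a family of 12 annotated genes that aligned to Gm10800 over at least 100 bases at 80% identity or more. The 90-base stretches below, from GENCODE M21 transcripts on GRCm38, are written 5′ to 3′ on the transcribed strand, and capitals mark the bases that differ from Gm10800. The stretches lie at chr2:98667139-98667228 (minus strand), chr14:19418768-19418857 (minus), chr2:98662378-98662467 (plus) and chr9:3025489-3025578 (plus).
Gm10800: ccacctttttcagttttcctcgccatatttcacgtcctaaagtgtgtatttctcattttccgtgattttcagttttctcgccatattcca
Gm21738: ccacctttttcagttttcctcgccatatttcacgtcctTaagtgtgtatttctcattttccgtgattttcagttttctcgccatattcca
Gm10801: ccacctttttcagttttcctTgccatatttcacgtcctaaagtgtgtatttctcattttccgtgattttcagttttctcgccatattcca
Gm10717: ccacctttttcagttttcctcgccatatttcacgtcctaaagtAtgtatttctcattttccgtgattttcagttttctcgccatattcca
The stretch was chosen as the one with the fewest differences, and there each of the last 3 differed from Gm10800 at 1 base. Over the longer alignments, identity to Gm10800 was lower. It was 90.4% over 679 bases for Gm21738, 89.8% over 509 for Gm10801 and 92.5% over 667 for Gm10717. The 12 genes are given as a family, and their split between loci is uncertain.

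A second predicted protein-coding gene, Gm20594, matched the mitochondrial large ribosomal RNA gene mt-Rnr2 at 88.5% identity over 435 bases. Its stretch with the fewest differences, at chr6:79818253-79818342 (plus), is set under that of mt-Rnr2 at chrM:2072-2161 (plus). Capitals mark the 3 bases that differ.
mt-Rnr2: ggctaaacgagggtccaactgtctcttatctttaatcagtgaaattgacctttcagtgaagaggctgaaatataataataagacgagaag
Gm20594: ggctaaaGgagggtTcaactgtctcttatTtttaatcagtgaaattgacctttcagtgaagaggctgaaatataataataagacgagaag
The reads of Gm20594 came to 1.91%, 2.44%, 2.28% and 1.86% of those of mt-Rnr2 in WT replicates 1 to 4. This ratio stayed in a narrow band while the level of mt-Rnr2 itself fell from 442309 CPM (counts per 1000000 reads of a library) in replicate 1 to 91426 CPM in replicate 4. The Gm10800 family and Gm20594, together the repeat copies below, were therefore left out of the class of coding genes, which held 10048 nuclear protein-coding genes.

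Mitochondrial ribosomal RNA was the largest class in replicates 1 to 3 and coding transcripts in replicate 4. The mt-Rnr1 and mt-Rnr2 transcripts took 64.8%, 47.5%, 48.3% and 13.9% of the listed reads in replicates 1 to 4. Coding genes took 21.6%, 36.6%, 28.4% and 56.3%, a mean of 35.7% ± 15.04 (SD, n = 4). Replicate 4 was lowest on the first measure and highest on the second, and had the fewest listed reads of the 4. The 95% Wilson interval of its coding share was 56.2% to 56.4%, which covers counting error only, so the gap to replicate 2 was far wider than counting error. Malat1, a long noncoding RNA retained in nuclear speckles, took 5.17%, 7.29%, 7.63% and 18.4% of the reads and was the third highest gene of any class. The Gm10800 family took 1.47%, 0.572%, 8.12% and 0.612%, so replicate 3 held most of its reads. The listed reads numbered 2200641, 2501048, 1857195 and 1034753, but the coding reads only 474823, 915998, 528051 and 582750, with a median of 15, 29, 19 and 18 reads per coding gene.

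**Figure D1:**
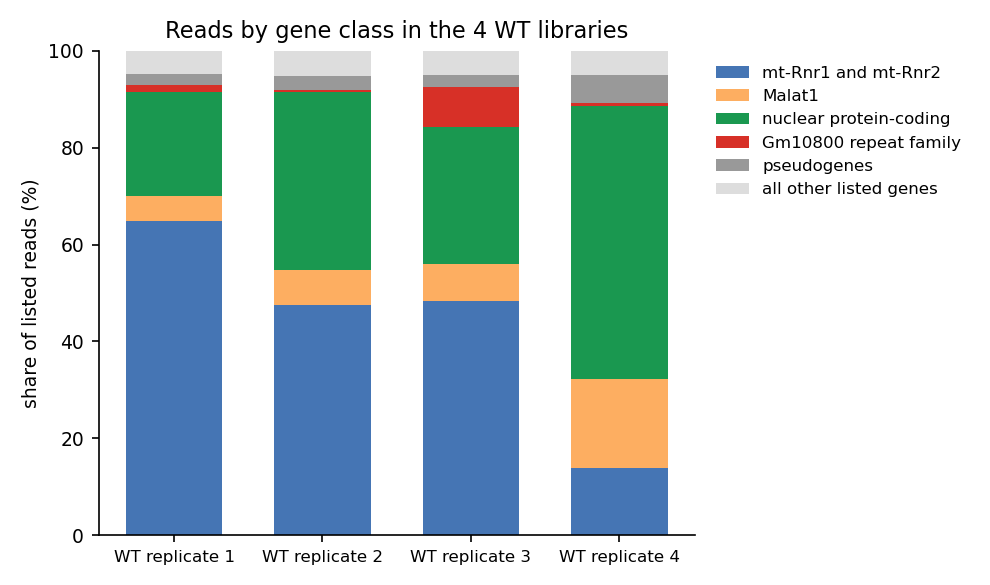
Stacked bars show the share of listed reads (%) taken by each gene class in each of the 4 WT libraries. Mitochondrial ribosomal RNA falls from 64.8% in replicate 1 to 13.9% in replicate 4, where coding genes reach 56.3%, and the Gm10800 family is widest in replicate 3 at 8.12%.

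The messenger RNAs of the mitochondrial genome did not follow its ribosomal RNA. The 13 mitochondrial protein-coding genes took 0.294%, 0.284%, 0.443% and 1.55% of the listed reads, so replicate 4 was highest where it was lowest for mitochondrial ribosomal RNA. Per read of mitochondrial messenger RNA there were 220, 167, 109 and 8.97 reads of mitochondrial ribosomal RNA in replicates 1 to 4. The most abundant member in CPM, mt-Nd5, a subunit of respiratory complex I, had 693, 1118, 871 and 2354 CPM. In coding CPM, which scales each library to its coding reads alone and so removes the changing share of the other classes, mt-Nd5 had 3243, 3084, 3140 and 4251, while mt-Nd2, another subunit of complex I, had 758, 305, 1115 and 3532. Near-identical nuclear copies of mt-Co1 and mt-Nd4 are annotated, so the values of those genes are uncertain, and neither is described further. The part that RNA quality, depth or the precipitation played in these class shares was not tested.

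Among coding genes the highest mean CPM belonged to Ahnak, a giant scaffold protein beneath the plasma membrane, with 3227, 5104, 3784 and 9076 CPM (5298 ± 2639, SD, n = 4). Next came Fabp4, a fatty acid binding protein made by both adipocytes and adipose capillary endothelium, with 2589, 4596, 3932 and 5973 CPM (4272 ± 1408, SD, n = 4). The third was Myh9, the heavy chain of nonmuscle myosin, with 2381, 4105, 2670 and 7001 CPM. In CPM all of these were highest in replicate 4 and lowest in replicate 1, the order of the libraries' coding shares at both ends. In coding CPM, Ahnak had 15103, 14084, 13645 and 16390, Fabp4 12118, 12682, 14177 and 10785, and Myh9 11141, 11329, 9628 and 12642. The 4 libraries thus lay within a much narrower range on that scale, and Fabp4 was lowest, not highest, in replicate 4.

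High places by mean CPM also went to Ptms, a small acidic nuclear protein, at 3090 CPM, and Col3a1, a fibrillar collagen of fibroblasts, at 2451 CPM. Eif3a, a subunit of a translation initiation factor, followed at 2160 CPM, and Cavin1, a coat protein of caveolae, at 1981 CPM. Plec, a cytoskeletal linker, had 1949 CPM and H2-D1, a class I histocompatibility gene, 1895 CPM. Also within the 30 highest coding genes were Msn, which ties actin to the membrane, at 1598 CPM and Col4a1, a chain of basement membrane collagen, at 1511 CPM. Igfbp7, a secreted binding protein of vessels, had 1348 CPM, and Cd36, the fatty acid translocase, 1294 CPM. The top of the ranking therefore held cytoskeletal, caveolar and matrix genes beside Fabp4, Scd1 (1418 CPM) and Col1a1 (1291 CPM), which are best known from adipocytes and fibroblasts.

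CPM counts reads per gene, so long transcripts rank high. Exon length here is the union of all annotated exons of a gene, which can exceed the length of any single transcript. Values per kilobase therefore depend in part on the annotation. The 100 highest coding genes had a median exon length of 6573.5 bases, against 4907.5 for all coding genes. Ranked instead by CPM per kilobase of exon, the leading coding genes included Ptms at 1909, Igfbp7 at 1115, Fabp4 at 952, Ptma at 786, H2-D1 at 735 and Cavin1 at 552 CPM per kilobase. Ahnak, with 19938 bases of exon, had 266 CPM per kilobase. Of the 100 highest coding genes by mean CPM, 56 were also among the 100 highest per kilobase. Coding reads were spread over many genes: the 10 highest took 8.74% and the 100 highest 27.2% of the mean coding CPM, and 512 genes were needed to reach 50% of it (465 to 568 in single libraries).

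**Figure D2:**
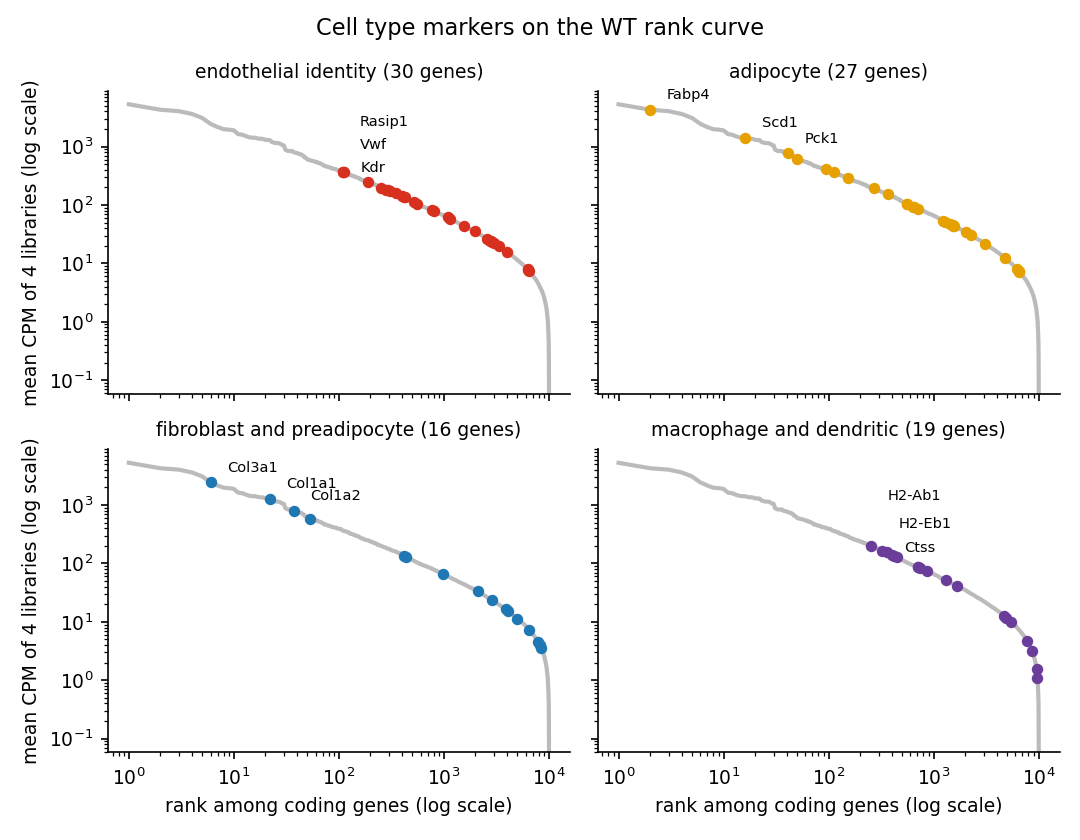
Each panel plots mean CPM of the 4 WT libraries against rank among coding genes (both log scales), with all coding genes as the grey curve and the measured members of 1 gene list as points. The highest endothelial members lie near 360 CPM, while the adipocyte and fibroblast panels each have a member above 2400 CPM.

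The label of the libraries was set against 30 endothelial identity genes, and all 30 were read in all 4 libraries. So were 9924 of all 11802 genes and 8555 of the 10048 coding genes. Of these, 21 lay in the top 25% of all genes by mean CPM and 3 in the lower 50%. The median of log2(CPM + 1) over the list exceeded the median of all genes by 2.68 ± 0.35 (SD, n = 4), and the summed level was 8540, 9283, 8249 and 11061 coding CPM. Endothelial genes were thus well represented in every library, with the highest sum in replicate 4.

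Rasip1, a Ras-interacting protein needed for vessel lumens, led the list with 218, 406, 149 and 692 CPM (366 ± 243, SD, n = 4). Vwf, the von Willebrand factor stored in endothelial granules, had 195, 412, 260 and 588 CPM (364 ± 175). Kdr, the main VEGF receptor, had 194, 315, 277 and 653 CPM (360 ± 202). The means of these 3 genes differed by far less than their SD, so their order is not resolved. Plvap, the diaphragm protein of fenestrae and caveolae, followed at 247 ± 112 CPM, and the receptor Tie1 at 199 ± 147 CPM. Pecam1 had 184 ± 122 CPM, Cdh5 (VE-cadherin) 179 ± 85.5 CPM and Cldn5, a tight junction claudin, 174 ± 103 CPM, again without a resolved order. Per kilobase of exon the order of these genes was another, with Plvap at 124, Cldn5 at 123, Rasip1 at 114, Cdh5 at 42.7 and Tie1 at 40.5 CPM. Kdr followed at 39.9, Pecam1 at 29.5 and Vwf, with 16064 bases of annotated exon, at 22.6 CPM per kilobase. Toward the low end in CPM stood Emcn, a sialomucin of capillaries and veins, at 7.91 CPM, Ecscr at 7.59 CPM and Myct1 at 7.36 CPM.

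In coding CPM the endothelial genes differed less between libraries, with a median coefficient of variation (CV, SD over mean) of 0.241. Mmrn2, a matrix protein of the endothelial surface, had 206, 230, 227 and 247 coding CPM, a CV of 0.07 against 0.09 for counting error alone. Cd93 had 358, 337, 407 and 415 (CV 0.10) and Vwf 914, 1136, 937 and 1062 (CV 0.10). No library lay far from the others for these 3 genes. Icam2, with 61.1, 27.3, 7.58 and 68.6, and Clec14a, with 48.4, 75.3, 18.9 and 113, were the most uneven, and both were lowest in replicate 3. Those low values rested on 4 reads of Icam2 and 10 of Clec14a. Their CVs were 0.70 and 0.63, against 0.21 and 0.16 for counting error alone. Erg, an ETS factor of endothelial identity, ran the other way and was highest in replicate 3, with 37.9, 55.7, 133 and 60.1. Of the 30 genes, 19 were highest in replicate 4 on this scale, where 2470 of the 10048 coding genes were highest in that library.

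**Figure D3:**
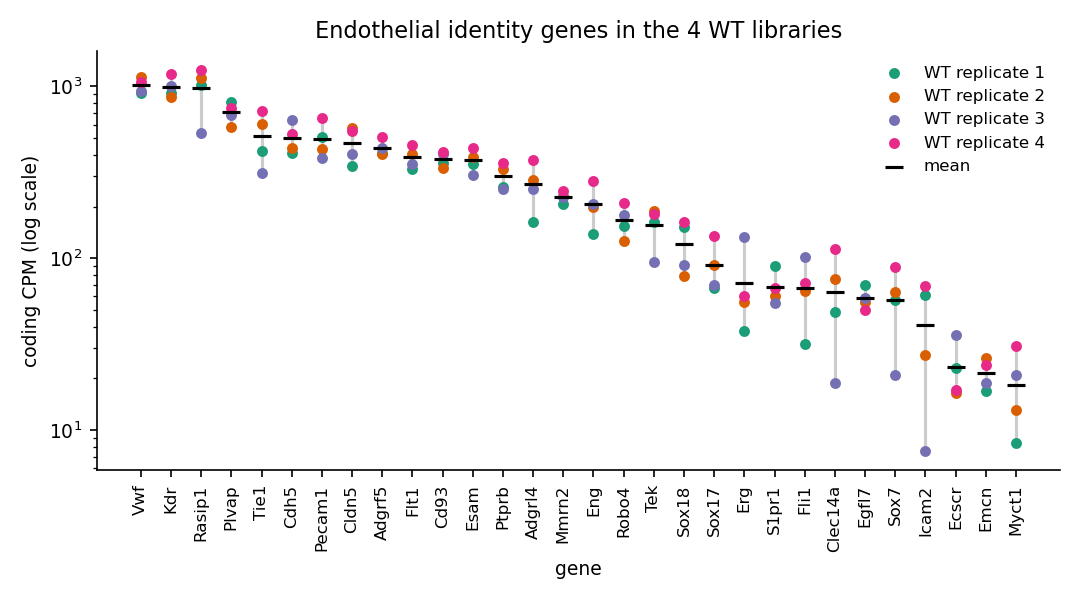
Points show each of the 30 endothelial identity genes in each WT library in coding CPM (log scale), with a bar at the mean and genes ordered by it. Replicate 4 is the highest point for 19 genes, and Icam2, Clec14a and Erg have replicate 3 far from the mean.

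The list of adipose capillary genes had a higher median than the general endothelial list, and its sum varied little between libraries. All 15 adipose capillary genes were measured and 12 lay in the top 25% of all genes. Their summed level was 9332, 9866, 9937 and 10001 coding CPM, and their median exceeded that of all genes by 3.57 ± 0.15 on the log2 scale. Cd36 led with 3839, 3928, 3600 and 3494 coding CPM (CV 0.05). Its mean of 3715 was a large part of the mean list sum of 9784 coding CPM, so the steady sum leans on this gene. Aqp7 is also in the adipocyte list, and without input RNA the cell source of Cd36 and the other members was not resolved. The median CV of the members, 0.230, was close to the 0.241 of the endothelial identity list. Gpihbp1, which carries lipoprotein lipase across the capillary wall, had 1110, 1202, 968 and 985 (CV 0.10). Tcf15, a transcription factor of capillaries that take up fatty acids, had 352, 574, 523 and 729 (CV 0.29). Cd36 and Gpihbp1 kept their level across libraries, while Tcf15 was lowest in replicate 1 and highest in replicate 4. Timp4 was the lowest member at 16.9 CPM.

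Arterial and venous genes had lower medians. Of 15 measured arterial genes (of 16 in the list), 8 lay in the top 25%, and the list median exceeded that of all genes by 1.34 ± 0.45 on the log2 scale. Nrp1, a co-receptor of VEGF and semaphorins that is not limited to arteries, was highest at 316 CPM, followed by Sema3g at 84.2 and Notch1 at 64.6 CPM, while the arterial connexin Gja4 had 2.88 CPM. Of 11 measured venous genes (of 12), 4 lay in the top 25%, with an excess of 0.66 ± 0.23. Vwf was the highest of these, then Ephb4, the venous ephrin receptor, at 98.4 CPM and Nrp2 at 64.9 CPM. Ackr1, a chemokine receptor of venules, had 0, 2.37, 5.78 and 5.70 CPM, at most 11 reads in any library, so its level is not resolved. Lymphatic endothelium was thinly covered, with 4 of 11 list genes measured. The highest was Maf, a transcription factor that macrophages also make, at 101 CPM, while Lyve1 had 13.7 and Flt4 13.1 CPM.

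The functional lists placed the basement membrane highest. All 15 basement membrane genes were in the top 25%, with a median 4.13 ± 0.22 above that of all genes on the log2 scale. Col4a1 had 4004, 4418, 3954 and 4498 coding CPM (CV 0.07) and Col4a2, the chain it assembles with, 2117, 2225, 2379 and 2598 (CV 0.09). Sparc, a matrix protein that binds collagen, had 2013, 3267, 3146 and 3737 (CV 0.24). The collagen IV chains were therefore steady, while Fn1, encoding fibronectin, was not: it had 695, 1213, 1629 and 456 (CV 0.53) and was lowest in replicate 4.

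Of the 12 caveolae genes, 10 were in the top 25%. Cavin1 had 6238, 6003, 4734 and 5601 coding CPM and Cavin2 2125, 2024, 2034 and 2426. Both differed little between libraries, with CVs of 0.12 and 0.09. Cav1, the main caveolin, ranked much lower, at 72.7 CPM, or 21.1 CPM per kilobase against 552 for Cavin1. Of the 17 genes of fatty acid transfer, 13 were in the top 25%, but 12 were lowest in replicate 4 in coding CPM, where 2731 of the 10048 coding genes were lowest in that library. Among these, Lpl, lipoprotein lipase, had 682, 641, 657 and 374, Lipe, hormone-sensitive lipase, 1078, 1098, 1723 and 607, and Acsl1, an acyl-CoA synthetase, 575, 558, 917 and 206. Replicate 4 lay below the other 3 for each of these. Lpl, Lipe and Fabp4 are also members of the adipocyte list described below, so the results of these lists overlap. The cause of the lower values was not tested.

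Endothelial junction genes had 11 of 16 measured members in the top 25% and a median 2.89 ± 0.42 above that of all genes on the log2 scale. Afdn, the actin-binding adaptor afadin, was highest at 337 CPM, and Cgnl1, a cingulin-like protein of tight and adherens junctions, next at 294 CPM. Endothelial receptors had 21 of 29 in the top 25%, led by Kdr, Nrp1 and Il6st, the shared receptor subunit of the interleukin 6 family, at 256 CPM. Endothelial transcription factors were lower, with 13 of 25 in the top 25% and an excess of 1.27 ± 0.30. Tcf15 led at 208 CPM, and Epas1, the hypoxia factor HIF2 alpha, followed with 104, 164, 138 and 252 CPM. Epas1 was among the steadiest genes in coding CPM, at 489, 453, 496 and 455 (CV 0.05, counting error alone 0.06). Klf2, a factor induced by blood flow, had 98.0 CPM, Ets1 85.7 CPM and Meox2, a homeobox factor of capillaries, 77.0 CPM.

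Genes of vascular tone had 8 of 13 measured members in the top 25%. Ece1, which activates endothelins, led at 189 CPM, then Piezo1, a channel opened by shear stress, at 99.1 CPM, Cav1 at 72.7 CPM, and Npr3 and Npr1, receptors for natriuretic peptides, at 67.5 and 63.9 CPM. Haemostasis genes lay at the level of all genes, with a difference of -0.02 ± 0.19 on the log2 scale. Of 15 measured members (of 17), 5 lay in the top 25% and 7 in the lower 50%. Vwf led at 364 CPM, followed by Gas6, Thbd and Anxa2 at 42.6, 39.3 and 39.3 CPM, an order that is not resolved, and Stxbp5 at 35.5 CPM. Immediate early genes, which handling of tissue can induce, exceeded all genes by 0.42 ± 0.51, an SD wider than the difference. After Klf2 the highest were Jund at 93.2 and Ier5 at 72.6 CPM.

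Markers of other cell types were also present, and the adipocyte list stood as high as the endothelial list. Of 28 adipocyte genes 27 were measured, and 22 lay in the top 25% of all genes. The endothelial median minus the adipocyte median of log2(CPM + 1) was -0.42, -0.19, -0.43 and 0.99 in replicates 1 to 4, a mean of -0.02 ± 0.68 (SD, n = 4). The 2 lists could not be told apart on this measure: the endothelial list was higher in replicate 4 and lower in the other 3 libraries. In summed reads the adipocyte list was 3.44, 3.35, 4.22 and 1.66 times the endothelial list, and with Fabp4 left out 2.02, 1.98, 2.50 and 0.688 times. In bulk precipitates, fewer cells of a type and less RNA per cell cannot be told apart.

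Several list members are also made by capillary endothelium, namely Fabp4, Aqp7 and Pparg, and the protein of Lpl is anchored there. Members with a narrower source were therefore read as well, picked after their values were seen. Plin1, the perilipin that coats adipocyte lipid droplets, had 211, 255, 452 and 244 CPM. Adipoq, encoding adiponectin, had 15.3, 48.3, 45.2 and 68.4 CPM, and Cidec, a lipid droplet fusion protein, 23.4, 51.8, 45.2 and 16.2 CPM. All 3 were read in every library, as were 8555 of the 10048 coding genes. Per kilobase of exon Plin1 had 62.5, Adipoq 32.1 and Cdh5 42.7 CPM. Enzymes of fat synthesis were abundant, with Scd1, a fatty acid desaturase, at 982, 2130, 1645 and 914 CPM. Pck1, the glyceroneogenic enzyme, had 940, 912, 649 and 545 CPM, and Fasn, fatty acid synthase, 324, 816, 883 and 396 CPM.

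In coding CPM the adipocyte list summed to 29405, 31092, 34796 and 18397, and 23 of its 27 members were lowest in replicate 4, where 2731 of all 10048 coding genes were lowest in that library. Scd1 had 4595, 5879, 5929 and 1651, and Pck1 4400, 2517, 2339 and 983. Retn, encoding resistin, had 27.4, 28.4, 28.4 and 8.58, from only 13, 26, 15 and 5 reads. Replicate 4 was below the other libraries for each, and it was also the library with the lowest share of mitochondrial ribosomal RNA and the highest share of Malat1. Whether these values are connected was not tested.

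Fibroblast genes were led by 3 collagens. Of 20 list genes 16 were measured and 8 lay in the top 25%. Col3a1 had 1252, 4518, 2364 and 1672 CPM, Col1a1 905, 2535, 1091 and 635 CPM and Col1a2, its partner chain, 479, 1742, 651 and 342 CPM. Replicate 2 was highest for all 3. Gsn, encoding the actin-severing protein gelsolin, followed at 587 CPM, then the complement gene C3 at 137 CPM and Fbn1, encoding fibrillin, at 131 CPM. Lower in the list, Pdgfra, the receptor that marks adipose progenitors, had 23.5 CPM and Dcn, encoding the proteoglycan decorin, 11.4 CPM, or 2.34 and 1.95 CPM per kilobase against 249.7 for Col3a1 (Pdgfra and Dcn were picked after their values were seen). The summed fibroblast list was 14797, 28313, 17264 and 7470 coding CPM, so replicate 2 was highest and replicate 4 lowest. The ratio of Col1a1 to Col4a1 reads was 1.06, 1.58, 0.995 and 0.255. By medians the endothelial list exceeded the fibroblast list by 0.50, 1.26, 1.23 and 1.78 on the log2 scale (1.19 ± 0.53, SD, n = 4), although its summed reads were lower in replicates 1 to 3. This difference was 0.51 among genes of at least 5 CPM, and 0.35 with means over members, when the endothelial list was higher in 2 of 4 libraries.

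Macrophage and dendritic cell genes were close to the endothelial list in their median and well below it in their sum. Of 21 list genes 19 were measured and 12 lay in the top 25%. The endothelial median exceeded theirs by 0.15, -0.01, 0.62 and 0.31 on the log2 scale (0.27 ± 0.27, SD, n = 4), higher in 3 of 4 libraries. Its direction was not stable, at -0.0916 among genes of at least 5 CPM, -0.14 per kilobase and 0.99 with means over members. In summed reads the macrophage list came to 0.396, 0.466, 0.287 and 0.429 times the endothelial list. H2-Ab1, a chain of the class II histocompatibility molecules, led at 115, 265, 58.3 and 358 CPM. Cd163, a scavenger receptor of resident macrophages, had 76.5, 223, 66.7 and 201 CPM and C1qa, a complement component, 62.6, 207, 79.3 and 196 CPM. In CPM replicates 2 and 4, which also had the highest coding shares, were above replicates 1 and 3 for each of these genes. In coding CPM the order was less even: Cd163 had 358, 616, 241 and 362, and Ctss, a lysosomal protease, 512, 345, 214 and 585, with replicate 3 lowest for both.

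Pericyte and smooth muscle genes were low. Of 15 list genes 8 were measured, and the endothelial median exceeded theirs by 1.70, 2.32, 1.91 and 4.10 on the log2 scale (2.51 ± 1.09, SD, n = 4). Myh11, the smooth muscle myosin heavy chain, led with 132, 152, 110 and 52.3 CPM, and Acta2, smooth muscle actin, had 13.1, 36.4, 12.6 and 5.70 CPM. Both were lowest in replicate 4, as was the summed list, at 956, 776, 782 and 287 coding CPM. Skeletal muscle genes lay below the median of all genes, by a log2 difference of -0.41 ± 0.34, with 14 of 19 measured. Ttn, encoding titin, led them with 66.1 CPM but only 0.566 CPM per kilobase over its 116825 bases of annotated exon. Schwann cell and nerve genes, with 5 of 13 measured, were lower again at -0.68 ± 0.44.

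Blood cell genes depended on the library. The 7 measured erythroid and platelet genes (of 12) summed to 769, 748, 400 and 2114 coding CPM. The alpha globin genes Hba-a1 and Hba-a2, near-identical copies whose split is uncertain, had 22.5, 43.1, 15.2 and 321 CPM and 23.0, 43.1, 11.03 and 316 CPM. The beta globin gene Hbb-bs had 24.8, 44.7, 16.3 and 211 CPM. All globins were highest in replicate 4, while the platelet chemokine Pf4, at 63.9, 90.2, 37.3 and 115 CPM, differed less. Itga2b, from the same list, had a mean of 11.1 CPM, and the cell source of the Pf4 reads was not tested. Only 2 of 20 lymphocyte genes and 1 of 14 granulocyte and mast cell genes were measured, and none of the 11 mesothelial or 15 reproductive tract and gland epithelium genes. Since the lowest mean over the table's 9 columns, WT and Mfn2-deficient libraries alike, was 1.77 CPM, genes under such a level have no value here, and the measured members of a list are those that passed.

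**Figure D4:**
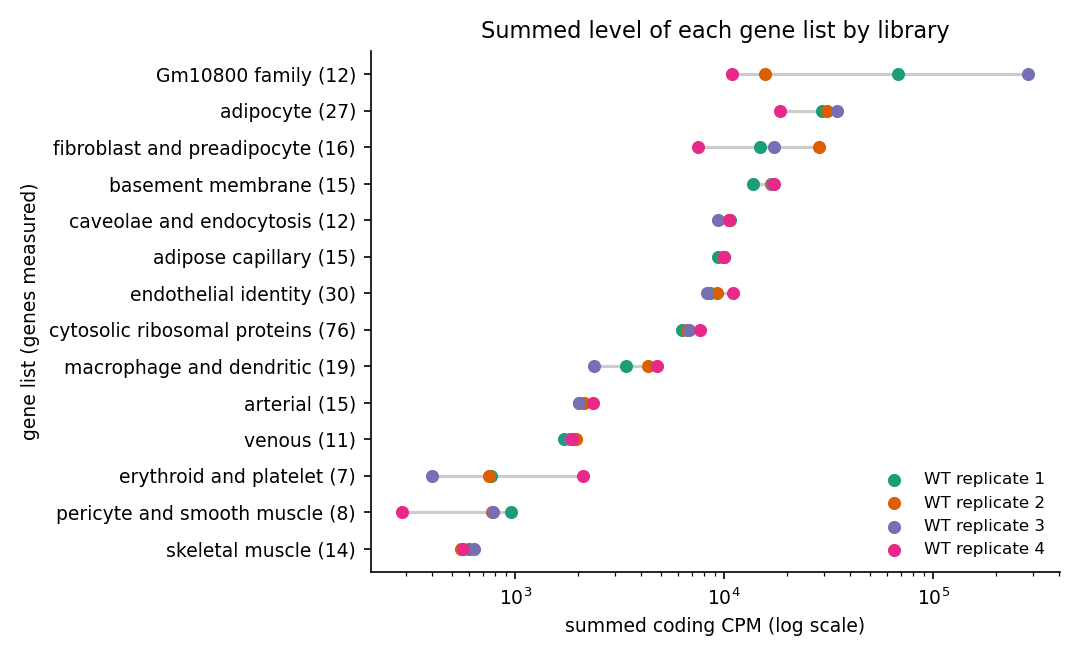
Points show the summed coding CPM (log scale) of each gene list in each WT library, with the number of genes measured in parentheses and a grey line from the lowest to the highest library. The adipose capillary list spans 9332 to 10001, whereas the fibroblast list spans 7470 to 28313 and the Gm10800 family 10864 to 285614.

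The tagged protein, the driver and the gene studied by the series were all read. Pdgfb had 51.3, 78.7, 67.8 and 140 CPM, and in coding CPM 240, 217, 244 and 252 (CV 0.06, counting error alone 0.08), among the steadiest levels of any endothelial gene named. Rpl22 had 8.55, 17.4, 21.5 and 7.60 CPM and Mfn2, a mitochondrial fusion protein, 20.3, 55.8, 30.5 and 38.0 CPM. Per kilobase of exon Rpl22 had 4.73 CPM, against a median of 8.68 over the ribosomal protein genes and 107 for Rplp2, the highest of them in CPM. The ribosomal protein list as a whole was modest, with 25 of 76 measured genes in the top 25% and 32 in the lower 50%. It summed to 6308, 6626, 6778 and 7657 coding CPM. The 113 annotated ribosomal protein pseudogenes of the table held reads equal to 70.3%, 60.4%, 66.4% and 63.3% of that list, so levels of single ribosomal protein genes are uncertain.

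The spread between libraries depended on the scale and the level. Over all 11802 genes the median CV was 0.639 in CPM and 0.521 in coding CPM, with 0.235 for counting error alone. For the 250 coding genes at 200 CPM or more these values were 0.487, 0.192 and 0.0423, so the spread of well-read genes stayed above counting error on both scales. Of the 1339 coding genes with a mean of at least 50 CPM, replicate 4 was highest for 85.1% in CPM and 32.2% in coding CPM. On the second scale 487 of the 1339 had a CV under 0.2 and 70 a CV over 0.5. The biological coefficient of variation fitted by edgeR to the recovered reads of all genes was 0.563. Across the 11802 genes, which are not independent replicates, Pearson's r of log2(CPM + 1) ran from 0.764 (replicates 3 and 4) to 0.840 (replicates 1 and 2). Of the 500 highest coding genes of each library, 350 were shared by all 4, and 67 of the 100 highest.

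By list, the median CV in coding CPM was 0.241 for endothelial identity, 0.230 for adipose capillary, 0.406 for adipocyte and 0.583 for fibroblast genes. CV falls with level: it was 0.264 for coding genes at 50 to 100 CPM, where the endothelial and adipocyte list medians lie (80.2 and 86.0 CPM), and 0.340 at 20 to 50 CPM, where the fibroblast median lies (28.3 CPM). On that scale the steadiest well-read genes included Eif3a, with 6232, 6047, 5647 and 6414 coding CPM (CV 0.05), and Rplp2, with 674, 616, 614 and 633 (CV 0.04). Neither had a library apart from the others. Scaled instead to all protein-coding reads, repeat copies included, their CVs were 0.157 and 0.125. The steadiest gene was then Cep170, with a CV of 0.028 against 0.122 in coding CPM. Counting error alone gave 0.092 for Cep170 and 0.052 for Rplp2 in coding CPM. CVs below that level, found among many genes, cannot rank genes by steadiness. In coding CPM some genes were high in a single library. Rpgrip1l, a protein of the ciliary transition zone, had 10.5, 6.55, 153 and 12.0 and Lama3, a laminin chain of epithelia, 8.42, 19.7, 157 and 18.9, both high in replicate 3. Slc4a4, a bicarbonate cotransporter, had 69.5, 250, 53.0 and 44.6, high in replicate 2, and Hr, a nuclear corepressor, 112, 14.2, 13.3 and 1.72, high in replicate 1. Capg, an actin-capping protein, had 29.5, 18.6, 3.79 and 134, and Samd9l, an interferon-induced gene, 128, 16.4, 28.4 and 290, both highest in replicate 4. These genes were picked for their unevenness, so their values describe these libraries only.

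**Figure D5:**
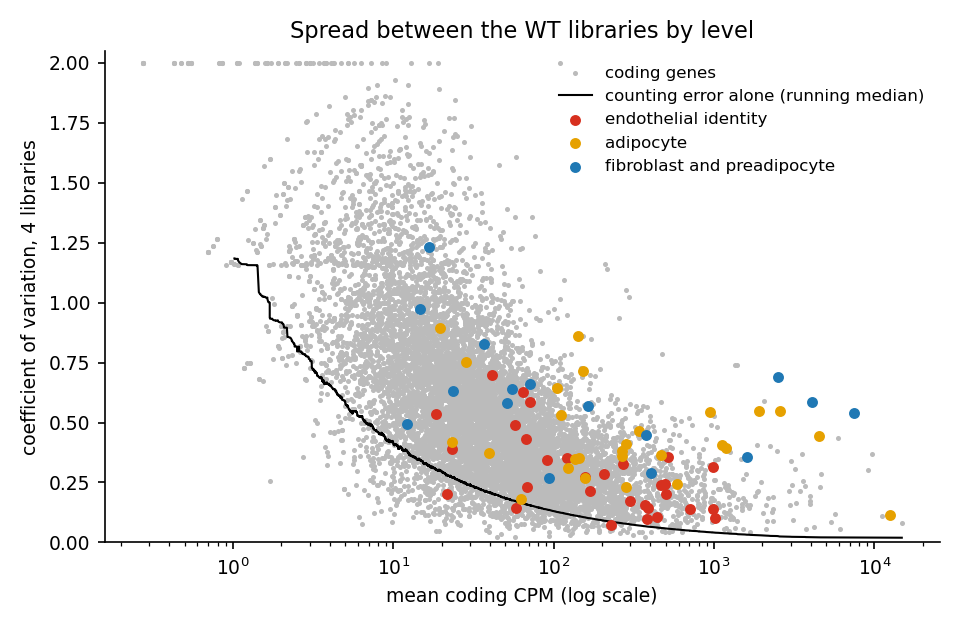
Each point is a coding gene, plotted as its CV over the 4 WT libraries against its mean coding CPM (log scale), with the running median of the CV that counting error alone gives as a black line. The median CV is 0.241 for the endothelial identity, 0.406 for the adipocyte and 0.583 for the fibroblast genes, beside 0.264 for coding genes at 50 to 100 CPM and 0.340 at 20 to 50 CPM, while Fabp4, the rightmost adipocyte point, has a CV of 0.11.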

How the data were processed

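RNA from HA immunoprecipitates was amplified with a low-input kit and sequenced, per the labels' protocols. The deposited values are CPM computed by the authors. FastQC 0.11.9, Trimmomatic 0.39, HISAT2 2.1.0, edgeR 3.32.0 and R 4.0.2 are named in the submitters' processing notes with the build GRCm38. The read counter, its handling of strand and multiply mapped reads, and any filter on low genes are unstated in the labels used here. If multiply mapped reads were counted, repeat copies gain reads.

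All values of a library were whole multiples of the worth of 1 read (100% within 0.1 read), which recovered its reads. A floor of 3 reads was 1.35, 1.19, 1.58 and 2.85 CPM in replicates 1 to 4. Genes absent from the table held 0.971% to 2.45% of CPM. Gene class, exon length and position came from GENCODE M21 (11787 of 11802 identifiers matched). Repeat copies were found with BLAST 2.17.0. Coding CPM, which leaves them out, was chosen after seeing the data. Levels used log2(CPM + 1). With 1 group no test was made, and 4 libraries cannot give a two-sided sign-flip p under 0.125. Spread was fitted with edgeR 4.0.16 (intercept only, checked on simulated data), with DESeq2 1.42.0 size factors as an alternative, in R 4.3.3.

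Named genes were the 15 highest of any class, the 30 highest coding genes, up to 6 highest and the lowest member of each list, all endothelial identity genes, the 10 steadiest and 10 most uneven at 50 CPM or more, the 5 most specific to each library, and Rpl22, Pdgfb and Mfn2. Steady, uneven and library-specific genes were ranked on reads scaled to all protein-coding reads, repeat copies included. The libraries, lists and rule were chosen with earlier results of these data known. Not every gene that the rule allows is reported here.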

Additional observations from a re-analysis of the deposited data

Results flagged for a closer look

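In 18 of 172 sets of 4 values examined (10.5%), 1 library lay far from the other 3, its gap to the nearest taking more of the whole range than the 95% critical value for 4 values. Chance alone sets apart about 1 in 20 such sets, the sets are not independent, and the genes specific to a library were picked for that reason.

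Among the read classes, the Gm10800 family share was set apart in replicate 3 (8.12% against 0.572% to 1.47%, gap 0.882 of the range). In replicate 4 the mitochondrial protein-coding share was high (1.55% against 0.284% to 0.443%, gap 0.874) and the share of the mt-Rnr2 copy low (0.173% against 0.785% to 0.852%, gap 0.902). The 40 genes of minor remaining classes were also high in replicate 4 (0.0605% against 0.0228% to 0.0286%, gap 0.846).

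Of the lists, the endothelial minus adipocyte median was set apart in replicate 4 (0.99 against -0.43 to -0.19 on the log2 scale, gap 0.832). The summed caveolae list was lower in replicate 3 (9327 against 10515 to 10714 coding CPM, gap 0.857).

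Among genes, in coding CPM, replicate 4 was low for Lpl (374 against 641 to 682, gap 0.865) and Retn (8.58 against 27.4 to 28.4, gap 0.948). The low value of Retn rested on 5 reads. It was high for Hba-a1 (580.0 against 54.9 to 119, gap 0.878), Hba-a2 (569.7 against 39.8 to 119, gap 0.851) and mt-Nd5 (4251 against 3084 to 3243, gap 0.864). The arterial connexin Gja4 was high in replicate 3 (20.8 against 4.21 to 5.46, gap 0.925), where it had 11 reads. Of the genes picked as specific to a library, the gap was 0.971 for Swt1 and 0.892 for Apol7c in replicate 4, and 0.887 for Hr in replicate 1. It was 0.879 for Slc4a4 in replicate 2, and 0.963 for Rpgrip1l and 0.925 for Lama3 in replicate 3.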

How the results depend on the processing

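Across 12 results and 123 alternatives, 109 values stayed within the spread of the libraries, or within 1.5 times for a count, and 14 did not. The endothelial minus fibroblast median moved from 1.19 to 0.51 among genes with a mean of at least 5 CPM and to 0.35 with means over members, when the endothelial list was higher in 2 of 4 libraries. The endothelial minus macrophage median of 0.27 became -0.0916 among genes of at least 5 CPM, -0.14 per kilobase and 0.99 with means over members, so its sign depends on these choices. The endothelial minus erythroid and platelet median of 0.74 became -1.90 per kilobase, globin transcripts being short. The endothelial minus adipocyte median of -0.02 lay between -0.69 (per kilobase) and 0.12, and was -0.35 without replicate 4. Per kilobase, 56 of the 100 highest coding genes were shared with the ranking by CPM. The median CV of 0.639 was 0.522 when scaled to all protein-coding reads, 0.521 with repeat copies left out (added after seeing the data), 0.519 with TMM (0.5185 unrounded) and with DESeq2 size factors, and 0.571 among genes of at least 5 CPM. Leaving out 1 replicate at a time it ran from 0.533 (without replicate 4) to 0.682 (without replicate 2). The edgeR biological coefficient of variation ran from 0.528 to 0.586 in the same way.

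No paired analysis was possible because a single group was described and no comparison was made between groups. Depth limits the low genes: with a median of 15 to 29 reads per coding gene, counting error alone gives genes under 5 CPM a median CV of 0.446. Without input RNA, transcripts of other cell types on the beads cannot be told apart from transcripts of tagged cells.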

Other observations

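Several other RNAs were abundant. The gene ENSMUSG00000118642, which carries no symbol in the annotation used, was the fourth highest of any class, with 22409, 27226, 17189 and 14798 CPM in replicates 1 to 4. Rn7sk, a small nuclear RNA that holds back transcription elongation, had 2816, 2141, 2235 and 2537 CPM, and near-identical copies are annotated, so its level is uncertain. In coding CPM, Malat1 had 239613, 199129, 268275 and 327266 (CV 0.21), so replicate 4 was highest on that scale too, though by less than in CPM. Other RNAs that stay in the nucleus had unlike orders. Neat1, the scaffold of paraspeckles, had 802, 1275, 754 and 491 coding CPM and was lowest in replicate 4, and Kcnq1ot1, an imprinted antisense RNA, had 208, 110, 284 and 383 and was highest there. Strand was not stated for the counts, so reads of Kcnq1ot1 and of the gene it overlaps cannot be told apart.

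Proteins of RNA processing also stood among the 30 highest coding genes. Prpf38b, a splicing factor, had 2302, 2952, 3500 and 5340 coding CPM and Srrm2, a component of nuclear speckles, 1778, 2622, 3522 and 4118. Both were highest in replicate 4 and lowest in replicate 1. Rbm25, another splicing regulator, had 4103, 4119, 3096 and 4599 and Ncl, encoding nucleolin, 4463, 3927, 2884 and 4518, both lowest in replicate 3.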
